A study of Mus musculus with 4 samples.

Results

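The complement C1q and efferocytosis genes of macrophages were followed through single-cell transcriptomes of mouse bone marrow. They are C1qa, C1qb, C1qc, Vcam1, Cd5l, Axl, Mertk, Spic, Adgre1 and Mrc1, 10 of the 32544 genes in the deposited tables, and they were picked by symbol as a set of known macrophage genes, with earlier results of these data known. The YAP1 heterozygote group held 2 libraries and the WT group held 2 libraries, all of flow-sorted nucleated bone marrow cells from mice labelled 10 weeks old. The labels give no other allele, no treatment and no sort gate, and they do not say whether a library came from 1 animal or from pooled animals. The series asks how cell percentages and expression profiles differ between marrow of the 2 genotypes, within a study of platelet formation.

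C1q is the recognition part of the first complement complex and is built from A, B and C chains, the products of C1qa, C1qb and C1qc. It binds immune complexes and dying cells, starts the classical complement pathway and marks its targets for uptake. Efferocytosis, the clearance of dying cells, is a main task of marrow macrophages, which also take up the nuclei that erythroblasts expel. Axl and Mertk are receptor tyrosine kinases that recognise phosphatidylserine on dying cells through the bridging proteins Gas6 and Pros1. Vcam1 is the adhesion molecule by which island macrophages hold erythroblasts. Cd5l is a secreted scavenger receptor-like protein of tissue macrophages, and Spic is an Ets-family transcription factor of iron-recycling macrophages. Adgre1 encodes F4/80, the classic mouse macrophage antigen, and Mrc1 encodes the mannose receptor CD206.

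The genes of the C1q chains lie next to each other on the minus strand of chromosome 4 (GRCm38, GENCODE release M21), C1qb at 136880129 to 136886187, C1qc at 136889804 to 136893065 and C1qa at 136895917 to 136898803. Vcam1 and Cd5l lie on chromosome 3, Mertk and Mrc1 on chromosome 2, Axl on chromosome 7, Spic on chromosome 10 and Adgre1 on chromosome 17. Vcam1 overlaps the measured gene model Gm43109 and Mertk overlaps Gm14011. Reads in those overlaps may be assigned to either gene.

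RefSeq promoter sequences (GRCm38.p6) were matched by symbol for 7 of the 10 genes. The 250 bases before the annotated start are shown for a C1q chain, for the macrophage product Cd5l and for the receptor Axl, since these were high in the same cells. C1qb is at chr4:136886201-136886450 on the minus strand, Cd5l at chr3:87357631-87357880 on the plus strand and Axl at chr7:25788734-25788983 on the minus strand. Each is written 5′ to 3′ along its gene. Capitals mark GAGGAA or its reverse complement TTCCTC, the form of Ets motif that PU.1 and Spi-C bind, and TGCTGA or TCAGCA, the half-site of Maf proteins.
C1qb: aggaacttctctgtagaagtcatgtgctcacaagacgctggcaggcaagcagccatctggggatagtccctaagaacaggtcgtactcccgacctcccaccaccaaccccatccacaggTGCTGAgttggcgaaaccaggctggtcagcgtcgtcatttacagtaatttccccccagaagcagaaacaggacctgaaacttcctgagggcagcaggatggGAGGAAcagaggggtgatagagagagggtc
Cd5l: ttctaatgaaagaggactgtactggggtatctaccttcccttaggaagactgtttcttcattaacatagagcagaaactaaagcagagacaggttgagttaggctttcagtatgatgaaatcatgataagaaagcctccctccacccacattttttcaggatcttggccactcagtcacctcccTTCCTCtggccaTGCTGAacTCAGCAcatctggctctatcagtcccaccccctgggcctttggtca
Axl: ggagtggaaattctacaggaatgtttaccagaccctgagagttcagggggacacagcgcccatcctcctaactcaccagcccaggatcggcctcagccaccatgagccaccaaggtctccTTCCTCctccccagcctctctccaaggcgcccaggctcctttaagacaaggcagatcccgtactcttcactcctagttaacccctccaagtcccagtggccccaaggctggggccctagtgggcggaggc
GAGGAA was present on either strand in 23.3% and TGCTGA in 16.1% of the 32851 RefSeq promoter windows of this length. C1qb held 1 match of each, Cd5l held 1 match to GAGGAA and 2 to TGCTGA, and Axl held 1 match to GAGGAA and 0 to TGCTGA. Among the other members with a sequence, Mrc1 held 3 matches to GAGGAA, C1qc 1 match to GAGGAA, Spic 1 match to TGCTGA, and Mertk 0 matches to either.

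After filtering, 10570 and 13220 cells remained in YAP1 heterozygote replicates 1 and 2, and 12534 and 11363 in WT replicates 1 and 2. Their median depth lay between 5520 and 6747 UMIs per cell (unique molecular identifiers, each standing for 1 captured transcript), and between 27 and 62 cell barcodes were shared by any pair of libraries. Ddx3y, on the Y chromosome, stood at 67.8 CPM in YAP1 heterozygote replicate 1 and 100.3 CPM in WT replicate 1. Xist stood at 864 CPM in YAP1 heterozygote replicate 2 and 885 CPM in WT replicate 2, so replicates 1 and 2 of a genotype differ in sex. CPM is the UMI count of a gene scaled to the same total of UMIs in every set of cells. Yap1 itself had 0 and 6 UMIs in the YAP1 heterozygote libraries, against 6 and 7 UMIs in the WT libraries, too few to check the genotype labels. WT replicate 1 stood apart in the conventional dendritic cell-like class, where its C1q level was low, and the C1q values over all cells and in that class are given with and without it.

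Cells were placed in 30 clusters without using the 10 genes, and the clusters were named from marker lists as 16 classes. The macrophage-like class was 1 cluster of 344 cells, led by Fcna, Hmox1, Sdc3 and Igf1. All of Hmox1, Slc40a1, Cd163, Fcna and Maf, markers of iron-handling tissue macrophages, were detected in it. Of the 12 markers of the macrophage list, 9 were found in at least 10% of its cells. Folr2 was at 0 in WT replicate 1 and Vsig4 at 0 in WT replicate 2. Its cells were shallow, with a median of 1345 UMIs. The cluster scored higher on the stromal list (4.09) than on the macrophage list (3.28), and it was named from its leading genes, 5 of the first 10 being macrophage markers. At a finer resolution 17 of its cells formed a stromal-like cluster, with 130 Vcam1 UMIs and 0 UMIs of C1qa or Cd5l. The conventional dendritic cell-like class held 654 cells, the classical monocyte-like class 4526 cells and the nonclassical monocyte-like class 498 cells.

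Each of the 10 genes had its highest mean level in the macrophage-like class, but for several of them most UMIs came from other cells. C1q transcripts were shared mainly between macrophage-like cells and part of the dendritic-like cells. Granulocyte-monocyte progenitor-like cells held more Vcam1 UMIs than any other class, and classical monocyte-like cells more Adgre1 UMIs than any other class. Cd5l and Mertk came closest to macrophage genes in the strict sense, with 72.9% and 67.3% of their UMIs in the macrophage-like cells. The macrophage-like share was 47.7% for Spic, 45.7% for Mrc1, 38.0% for Axl, 28.8% for Vcam1 and 4.5% for Adgre1. Of the 15269 C1q UMIs, 51.3% lay in dendritic-like cells and 33.1% in macrophage-like cells. These shares are descriptions of the classes and were not tested.

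**Figure D1:**
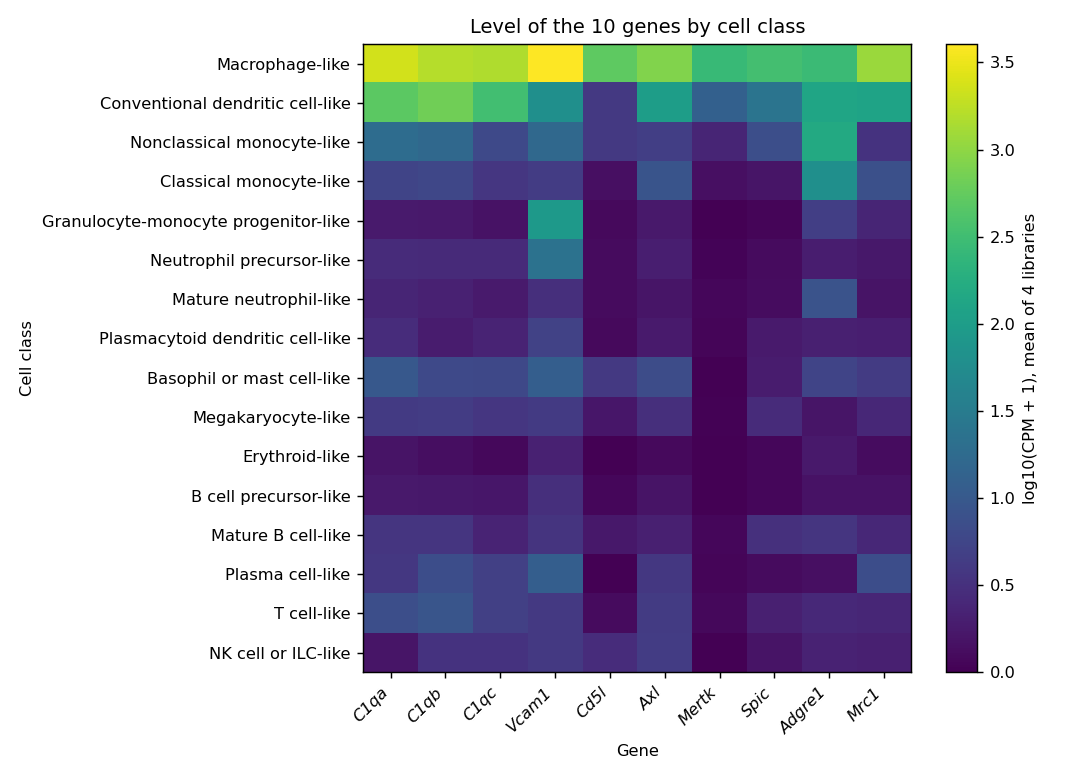
Level of the 10 genes (columns) in the 16 cell classes (rows), coloured by log10(CPM + 1) of the mean of the 4 libraries. The macrophage-like row is the brightest for every gene, the dendritic-like row follows for C1qa, C1qb, C1qc, Axl and Mrc1, and Vcam1 has a second bright cell in granulocyte-monocyte progenitor-like cells.

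The C1q chains were detected in most macrophage-like cells and in about the same cells. C1qa averaged 2276 CPM over the macrophage-like cells of the 4 libraries (range 2148 to 2420 CPM) and 496 CPM over dendritic-like cells (114 to 646 CPM). C1qb averaged 1594 CPM in macrophage-like cells (1489 to 1707 CPM) and 663 CPM in dendritic-like cells (170 to 937 CPM). C1qc averaged 1500 CPM in macrophage-like cells (1291 to 1747 CPM) and 323 CPM in dendritic-like cells (83.8 to 411 CPM). For each chain the ranges of the 2 classes did not overlap. The third class in the order, nonclassical monocyte-like cells, averaged 17.6 CPM of C1qa, 15.3 CPM of C1qb and 5.34 CPM of C1qc, and its range overlapped that of the class after it.

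The balance of the chains differed between the 2 C1q-rich classes. C1qa supplied 43.5% and 45.1% of the C1q UMIs of macrophage-like cells in YAP1 heterozygote libraries, against 42.4% and 38.9% in WT libraries. In dendritic-like cells it supplied 34.6% and 34.1% in YAP1 heterozygote libraries, against 31.0% and 32.2% in WT libraries. C1qb was the most abundant chain there, with 43.3% and 43.1% in YAP1 heterozygote libraries and 46.2% and 47.3% in WT libraries. The ratio of C1qa to C1qb UMIs was thus above 1 in macrophage-like cells of all 4 libraries (1.29 to 1.58) and below 1 in dendritic-like cells of all 4 (0.671 to 0.799). The ratio is compared between classes and not read as a difference in level between genes.

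The remaining genes divided by role. Of the receptors, Axl averaged 847 CPM in macrophage-like cells (757 to 926 CPM), 102 CPM in dendritic-like cells (62.3 to 124 CPM) and 7.53 CPM in classical monocyte-like cells (6.29 to 9.26 CPM). Mertk averaged 267 CPM in macrophage-like cells (146 to 323 CPM) and 11.9 CPM in dendritic-like cells (3.22 to 19.2 CPM), with 0.428 CPM in classical monocyte-like cells. Mrc1 averaged 1141 CPM in macrophage-like cells (976 to 1412 CPM), 121 CPM in dendritic-like cells (99.9 to 150 CPM) and 6.58 CPM in classical monocyte-like cells. For these 3 receptors the macrophage-like and dendritic-like ranges did not overlap.

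Vcam1 averaged 4036 CPM in macrophage-like cells (3339 to 5199 CPM) and 87.9 CPM in granulocyte-monocyte progenitor-like cells (79.2 to 94.6 CPM). The progenitor-like cells were deep, with a median of 25756 UMIs, and 45.2% of them had a Vcam1 UMI, so that they held 49.5% of all Vcam1 UMIs. Neutrophil precursor-like cells followed with 22.1 CPM (20.3 to 23.7 CPM), while dendritic-like cells ranged more widely, between 8.59 and 131 CPM.

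Cd5l averaged 512 CPM in macrophage-like cells (417 to 748 CPM) and did not exceed 5.94 CPM in a dendritic-like library. Spic averaged 332 CPM in macrophage-like cells (295 to 418 CPM), 23.6 CPM in dendritic-like cells (9.67 to 39.6 CPM) and 6.27 CPM in nonclassical monocyte-like cells (4.53 to 7.12 CPM), and these 3 ranges did not overlap. Adgre1 had the flattest profile among phagocytes, with 282 CPM in macrophage-like (223 to 391 CPM), 153 CPM in nonclassical monocyte-like (108 to 176 CPM), 133 CPM in dendritic-like (70.9 to 167 CPM) and 60.8 CPM in classical monocyte-like cells (56.7 to 63.0 CPM). The nonclassical monocyte-like and dendritic-like ranges overlapped, so the order of these neighbours is not resolved. Classical monocyte-like cells, by their number, held 55.3% of all Adgre1 UMIs.

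Detection per cell put macrophage-like cells first for every gene but Adgre1. Below them the order differed with depth. Vcam1 was detected in 16.6% of neutrophil precursor-like cells (median 11598 UMIs) and 7.80% of dendritic-like cells (median 7335 UMIs), and after thinning in 1.73% and 4.0%. C1qa was detected in 84.9% of the 344 macrophage-like cells, in 29.7% of the dendritic-like cells at a median of 7335 UMIs, and in 4.22% of the nonclassical and 1.88% of the classical monocyte-like cells. A background was read from lymphocytes, which do not make C1q. A C1qa UMI was seen in 0.773% of T cell-like cells (median 4479 UMIs) and in 0.523% of mature B cell-like cells (median 2772 UMIs). UMIs of each C1q chain were seen in 4 of 1682 T cell-like cells. Whether these UMIs came from free RNA was not tested. With each cell thinned to 1000 UMIs, leaving out shallower cells, the C1qa share was 72.4% of 203 macrophage-like cells, 20.9% of dendritic-like cells, 1.63% of nonclassical and 0.555% of classical monocyte-like cells. It was then 0.239% of T cell-like and 0.246% of mature B cell-like cells. For C1qb the thinned share of classical monocyte-like cells was 0.467%, close to 0.418% in T cell-like and 0.322% in mature B cell-like cells. Adgre1 was detected in 35.5% of macrophage-like cells, fewer than the 53.2% of nonclassical monocyte-like, 46.0% of dendritic-like and 44.3% of classical monocyte-like cells, all of which were deeper. With thinning the order turned, with Adgre1 shares of 21.2% in macrophage-like, 16.7% in nonclassical monocyte-like, 11.7% in dendritic-like and 7.6% in classical monocyte-like cells, against 0.119% in T cell-like cells.

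The C1q signal of classical monocyte-like cells rested on few cells. Of the 4526 cells, 96.8% had no C1q UMI and 36 had a UMI of each chain. In WT replicate 1, a single cell held 61.4% of the C1qa UMIs of the class. In contrast, 66.0% of macrophage-like cells and 26.1% of dendritic-like cells had UMIs of each chain, and 76.2% of macrophage-like and 22.8% of dendritic-like cells had UMIs of at least 5 of the 10 genes.

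Dendritic-like cells divided by C1q. Of the 654 cells, 419 had no C1q UMI, 28 had 1 or 2, and 207 had at least 3. The groups were formed by the C1q values, so the following levels are descriptions. Cells with at least 3 C1q UMIs had 320 CPM of Adgre1, 284 CPM of Axl, 222 CPM of Vcam1, 195 CPM of Mrc1, 82.9 CPM of Spic and 43.2 CPM of Mertk. Cells without C1q had 64.8 CPM of Adgre1, 30.8 CPM of Axl, 4.10 CPM of Vcam1, 87.0 CPM of Mrc1, 1.76 CPM of Spic and 0.879 CPM of Mertk. Both kept the antigen-presentation gene H2-Aa (6947 CPM with C1q and 7626 CPM without), against 883 CPM in macrophage-like cells. The C1q-bearing dendritic-like cells had more of the lipoprotein gene Apoe (6505 against 738 CPM) and less of the dendritic lectin gene Cd209a (191 against 951 CPM). Adgre1 in them, at 320 CPM, lay within the range of the macrophage-like libraries (223 to 391 CPM). Other macrophage markers, namely Fcna, Slc40a1, Hmox1, Cd5l and Maf, were lower in them than in macrophage-like cells to differing degrees. Fcna was at 11.3 CPM and the iron exporter gene Slc40a1 at 39.0 CPM, against 853 and 988 CPM in macrophage-like cells. The haem oxygenase gene Hmox1 was at 275 CPM in the C1q-bearing cells, 18.8 CPM in those without C1q and 1853 CPM in macrophage-like cells. Cd5l was at 11.3 CPM in them, against 469 CPM in macrophage-like cells. The transcription factor gene Maf stood at 358 CPM in the C1q-bearing dendritic-like cells, 17.6 CPM in those without C1q and 735 CPM in macrophage-like cells. The neutrophil gene S100a9 was at 10500 CPM in the C1q-bearing cells, 6826 CPM in those without C1q and 41240 CPM in macrophage-like cells, and its part in these levels was not tested.

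**Figure D2:**
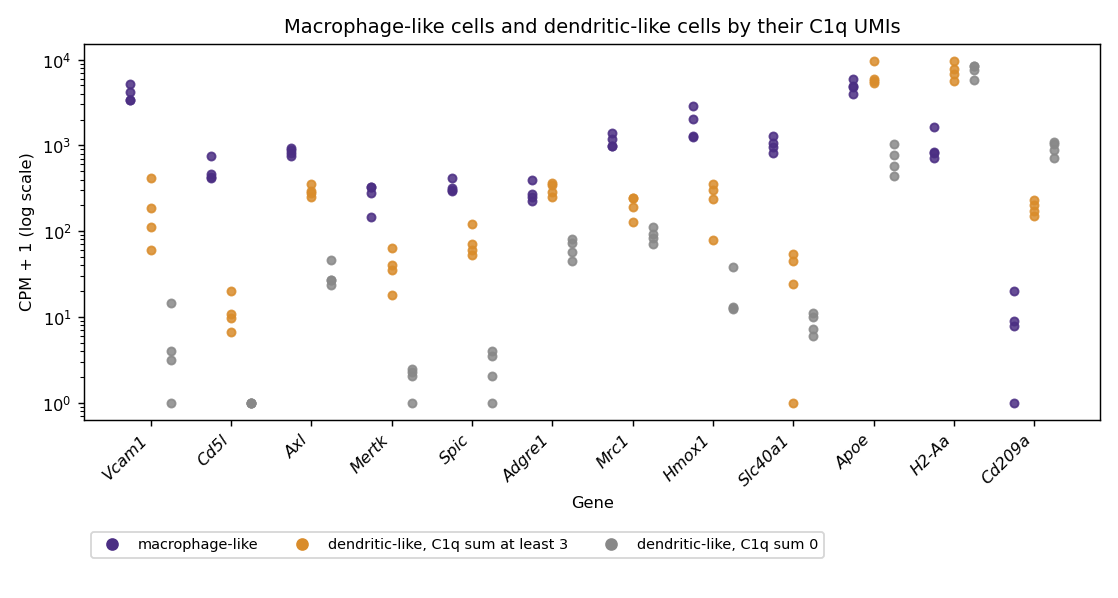
CPM + 1 on a log scale for 12 genes in macrophage-like cells, in dendritic-like cells with at least 3 C1q UMIs and in dendritic-like cells with 0, each point 1 library. The C1q-bearing dendritic-like cells lie between the other sets for Vcam1, Axl, Mertk and Spic, keep H2-Aa at about the level of the dendritic-like cells without C1q, and have far less Cd5l and Slc40a1 than macrophage-like cells.

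The positive share per library was then compared between the genotypes. A UMI of all 3 C1q genes was found in 125 of 10570 cells of YAP1 heterozygote replicate 1 (1.18%, 95% Wilson interval 0.994% to 1.41%) and in 176 of 13220 cells of replicate 2 (1.33%, 1.15% to 1.54%). In WT, it was found in 76 of 12534 cells of replicate 1 (0.606%, 0.485% to 0.758%) and in 122 of 11363 cells of replicate 2 (1.07%, 0.90% to 1.28%). Both YAP1 heterozygote libraries lay above both WT libraries, by a narrow margin over WT replicate 2. The mean shares were 1.26% ± 0.105 in the YAP1 heterozygote and 0.840% ± 0.330 in WT (SD, n = 2 each; exact two-sided permutation p = 0.333, the smallest that 2 against 2 libraries allow). The ratio was 1.95 between the replicate 1 libraries and 1.24 between the replicate 2 libraries. The log2 ratio of the means was 0.58 with all libraries and 0.23 without WT replicate 1. The intervals cover counting error only.

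These cells came from different classes in the libraries. In the YAP1 heterozygote libraries, 65 and 92 of them were macrophage-like and 41 and 52 dendritic-like. In WT replicate 1, 40 were macrophage-like and 15 dendritic-like, whereas in WT replicate 2, 30 were macrophage-like and 63 dendritic-like. The WT libraries thus differed from each other mainly in the dendritic-like part.

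**Figure D3:**
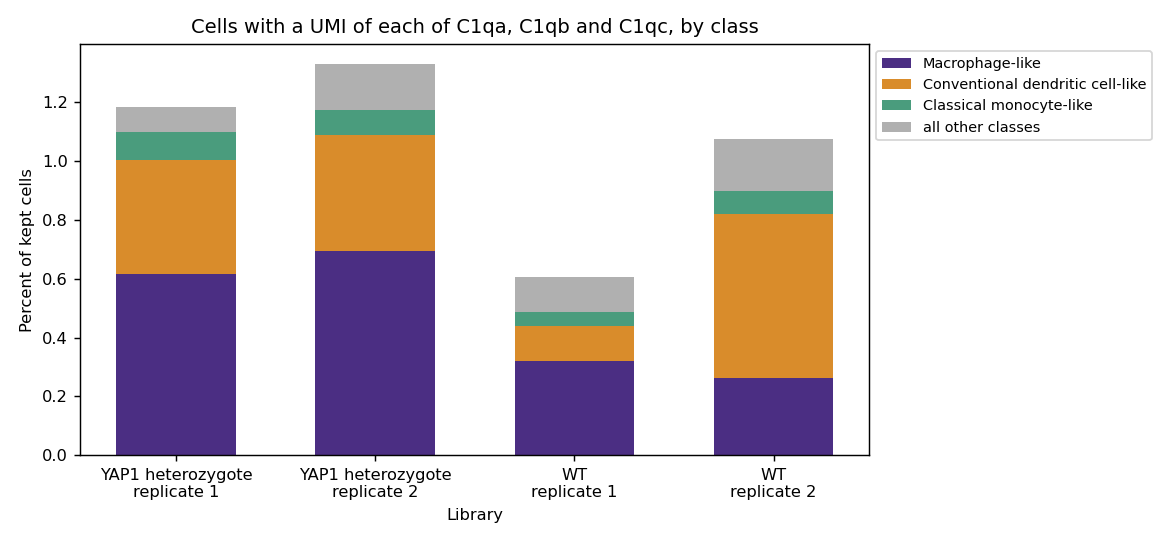
Cells with a UMI of each C1q chain as a percentage of the kept cells of each library, stacked by class. The macrophage-like part is taller in both YAP1 heterozygote libraries than in both WT libraries, and the dendritic-like part is smallest in WT replicate 1 and largest in WT replicate 2.

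For the single genes, the share of positive cells was above both WT libraries in both YAP1 heterozygote libraries for 8 of the 10 genes, and overlapped for C1qb and Adgre1. Of the 15592 genes tested over all cells, 5.11% had shares that lay higher without overlap in this way and 10% shares that lay lower. Cd5l was detected in 0.643% and 0.855% of YAP1 heterozygote cells, against 0.463% and 0.343% of WT cells. Mrc1 was detected in 2.19% and 2.55% of YAP1 heterozygote cells, against 1.54% and 1.74% of WT cells. Spic was detected in 0.833% and 1.01% of YAP1 heterozygote cells, against 0.551% and 0.669% of WT cells. Shares of Vcam1 were 7.95% and 6.98% in the YAP1 heterozygote, against 6.89% and 5.89% in WT. None of these comparisons can reach an exact p below 0.333. Thinning to 1000 UMIs per cell kept 10459 and 13029 YAP1 heterozygote cells and 12387 and 11235 WT cells. The shares of C1qa, C1qc, Vcam1, Spic and Mrc1 then still did not overlap, and those of C1qb still overlapped. Thinned Adgre1 shares did not overlap, though their means were close, at 1.62% in the YAP1 heterozygote and 1.56% in WT. How often thinned shares of all genes do not overlap was not computed. The thinned shares of Cd5l overlapped, at 0.172% and 0.338% in the YAP1 heterozygote and 0.178% and 0.0534% in WT, and those of Axl and Mertk overlapped as well.

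Over all kept cells, each of the 10 genes had a positive log2 fold change between YAP1 heterozygote and WT. Cd5l had 1.42 and 2.13 CPM in YAP1 heterozygote libraries, against 1.00 and 1.10 CPM in WT libraries (log2 fold change 0.77, SE 0.25). Mrc1 had 5.24 and 8.28 CPM in YAP1 heterozygote libraries, against 4.25 and 4.10 CPM in WT libraries (0.71, SE 0.24). Both YAP1 heterozygote libraries exceeded both WT libraries for these genes. Over all cells, more cells of a class and more RNA per cell cannot be told apart. Vcam1 had 34.9 and 41.1 CPM in the YAP1 heterozygote and 31.4 and 24.1 CPM in WT (0.47, SE 0.16). Spic had 1.37 and 2.26 CPM in the YAP1 heterozygote and 1.06 and 1.16 CPM in WT (0.73, SE 0.28). Axl had 4.5 and 6.65 CPM in the YAP1 heterozygote and 3.81 and 4.12 CPM in WT (0.51, SE 0.21). Those 3 genes did not overlap between the genotypes either.

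C1qa had 13 and 19.8 CPM in YAP1 heterozygote libraries, against 6.04 and 13.6 CPM in WT libraries (log2 fold change 0.76, SE 0.42). C1qb had 12.8 and 18.4 CPM in the YAP1 heterozygote, against 5.29 and 17.5 CPM in WT (0.46, SE 0.56). C1qc had 8.13 and 12.5 CPM in the YAP1 heterozygote, against 3.97 and 9.14 CPM in WT (0.67, SE 0.44). WT replicate 2 lay between the YAP1 heterozygote libraries for every chain, and WT replicate 1 below both, and without WT replicate 1 the values were 0.28 for C1qa, -0.16 for C1qb and 0.19 for C1qc. Without WT replicate 2 they were 1.45, 1.56 and 1.38, in the same order, and none was called. Mertk had 0.530 and 1.49 CPM in the YAP1 heterozygote, against 0.615 and 0.661 CPM in WT (0.68, SE 0.51), and its value was -0.26 without YAP1 heterozygote replicate 2. Adgre1 had 13.2 and 13.9 CPM in the YAP1 heterozygote, against 12.8 and 11.9 CPM in WT (0.16, SE 0.087).

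In edgeR's quasi-likelihood test over 15592 genes, 0 genes passed an adjusted p of 0.05 (0% of those tested), and each of the 10 genes had an adjusted p of 0.9998. An unadjusted p under 0.05 was reached by 417 genes (2.67%), among them 4 of the 10, namely Vcam1, Cd5l, Spic and Mrc1. DESeq2 called 11 genes and none of the 10. Both YAP1 heterozygote libraries lay above both WT libraries for 6 of the 10 genes, compared with 11.3% of all genes tested. The median log2 fold change of the 10 was 0.68, beside 0.013 for all genes tested. The 10 genes are read from largely the same cells and are not independent of each other.

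**Figure D4:**
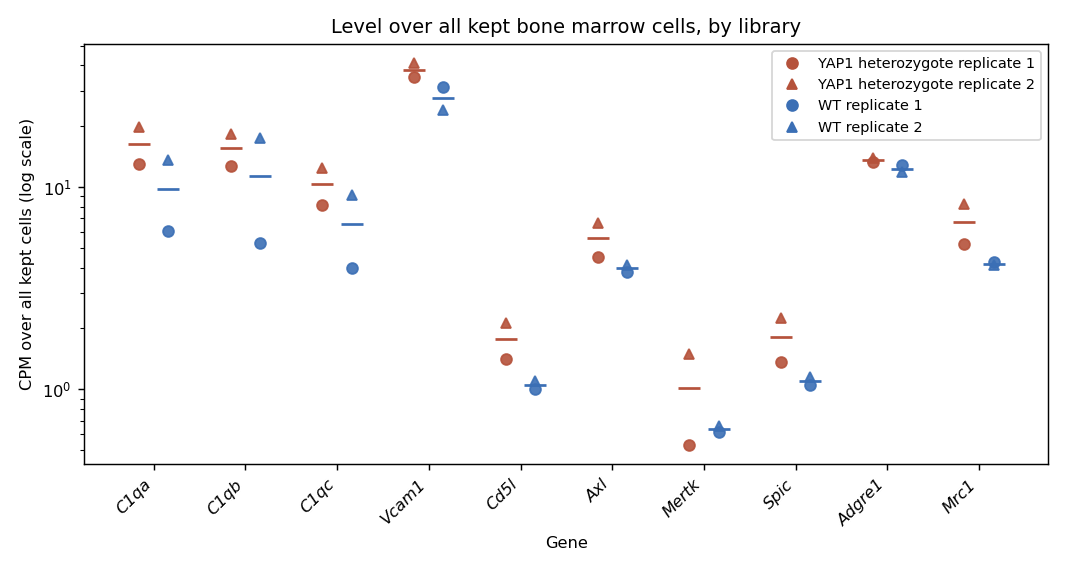
CPM of the 10 genes over all kept cells on a log scale, YAP1 heterozygote to the left of WT, each point 1 library and each line the mean of 2. YAP1 heterozygote points lie above WT points without overlap for Vcam1, Cd5l, Axl, Spic, Adgre1 and Mrc1, and the C1q chains overlap, with WT replicate 2 above YAP1 heterozygote replicate 1.

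The macrophage-like class itself took a larger share of the YAP1 heterozygote libraries. It made up 0.814% and 1.13% of kept cells there (86 and 150 cells), against 0.455% and 0.449% in the WT libraries (57 and 51 cells). The mean was 0.974% ± 0.227 in the YAP1 heterozygote and 0.452% ± 0.0042 in WT (SD, n = 2 each), a ratio of 2.16, with no overlap and an exact two-sided permutation p of 0.333. The ratio was 1.79 between the replicate 1 libraries and 2.53 between the replicate 2 libraries. Shares of some other classes did not overlap either. Neutrophil precursor-like cells made up 16.27% and 14.54% in the YAP1 heterozygote, against 14.1% and 13.92% in WT. Megakaryocyte-like cells made up 1.816% and 1.861%, against 2.274% and 2.112% in WT. Plasmacytoid dendritic cell-like cells made up 2.46% and 2.466%, against 2.808% and 2.816% in WT. The shares of the remaining classes overlapped. Markers of other cell types also differed between the libraries within the macrophage-like class, and the origin of their RNA was not tested. Summed mature neutrophil markers, all 6 detected in every library, stood at 10620 and 12100 CPM in YAP1 heterozygote macrophage-like cells, against 4648 and 4329 CPM in WT ones. S100a8 and S100a9 together made up 8.94% and 7.95% of UMIs in the YAP1 heterozygote, against 5.21% and 5.20% in WT. Erythroid markers, with Klf1 at 0 in every library, reached 5590 CPM in YAP1 heterozygote replicate 2 and lay between 126 and 281 CPM in the other libraries. Classical monocyte markers, all 6 detected, summed to 1057 and 1729 CPM in the YAP1 heterozygote, against 651 and 708 CPM in WT. They include Csf1r, which is also on the list of tissue macrophage genes, so this sum cannot be read as RNA of other cells only. Median depth in the class was 1411 and 1654 UMIs per cell in the YAP1 heterozygote, against 1096 and 885 UMIs in WT. The part of these in the class share and in the levels within the class was not tested.

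Within macrophage-like cells most of the genes had values of the opposite sign to those over all cells, and none was called. Of the 10 genes tested there, 8 had a negative log2 fold change and 2 a positive one, with a median of -0.21 beside -0.0087 for all genes tested. C1qb had 1498 and 1489 CPM in YAP1 heterozygote macrophage-like cells, against 1707 and 1684 CPM in WT ones (log2 fold change -0.14, SE 0.22). C1qc had 1291 and 1385 CPM in the YAP1 heterozygote, against 1577 and 1747 CPM in WT (-0.27, SE 0.23). C1qa had 2148 and 2358 CPM in the YAP1 heterozygote, against 2420 and 2180 CPM in WT (0.016, SE 0.21). The C1qa libraries of the genotypes overlapped, whereas those of C1qb and C1qc did not.

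Mertk had 146 and 276 CPM in YAP1 heterozygote macrophage-like cells, against 322 and 323 CPM in WT ones (log2 fold change -0.54, SE 0.33). Cd5l had 423 and 417 CPM in the YAP1 heterozygote, against 459 and 748 CPM in WT (-0.48, SE 0.29). Vcam1 had 3339 and 5199 CPM in the YAP1 heterozygote, against 4196 and 3408 CPM in WT (0.22, SE 0.25). YAP1 heterozygote libraries lay below WT libraries without overlap for C1qb, C1qc, Cd5l, Axl, Mertk, Spic and Adgre1. That is 7 of 10 genes, compared with 21.8% of the 3586 genes tested in the class. Shares of positive macrophage-like cells did not all follow these CPM values. After thinning, C1qb, Spic and Adgre1 shares were also lower in the YAP1 heterozygote without overlap. Their means were 55.7%, 22.54% and 20.11%, against 69.16%, 28.67% and 23.37% in WT. Thinned C1qa and C1qc shares were higher without overlap, with means of 73.85% and 67.2%, against 68.55% and 55.77% in WT. The other thinned shares of single genes overlapped. The thinned share with UMIs of all 3 C1q genes was lower without overlap, with means of 36.57% in the YAP1 heterozygote and 50.48% in WT. These thinned shares rest on 203 cells over the 4 libraries. How often shares of all genes do not overlap in this class was not computed. Adjusted p-values in edgeR's test were between 0.697 and 0.993, and none of the 10 passed. In the class as a whole, 1 gene was called (0.0279%), the neutrophil gene Retnlg, 309 had an unadjusted p under 0.05 (8.62%), and DESeq2 called 20, none of them among the 10.

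The macrophage marker genes that named the class summed to 7211 and 8424 CPM in the YAP1 heterozygote, against 9619 and 8611 CPM in WT. The level of a gene in CPM depends on the other RNA of the class, which differed between the genotypes as given above. Levels also differed with depth. Macrophage-like cells under 1000 UMIs had 5081 CPM of C1qa, 3456 CPM of C1qb and 1903 CPM of Axl. Deeper ones had 1971, 1335 and 704 CPM. Of the 10 genes, Mertk alone was lower in the shallower cells, at 226 against 257 CPM. S100a9 was at 6213 CPM in the shallower and 45200 CPM in the deeper cells. The part of depth in the genotype values was not tested. Directions were also not stable to how the class was drawn. With the 10 genes let into the clustering, 6 of the 8 negative values became positive, among them C1qb at 0.39 and C1qc at 0.14.

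**Figure D5:**
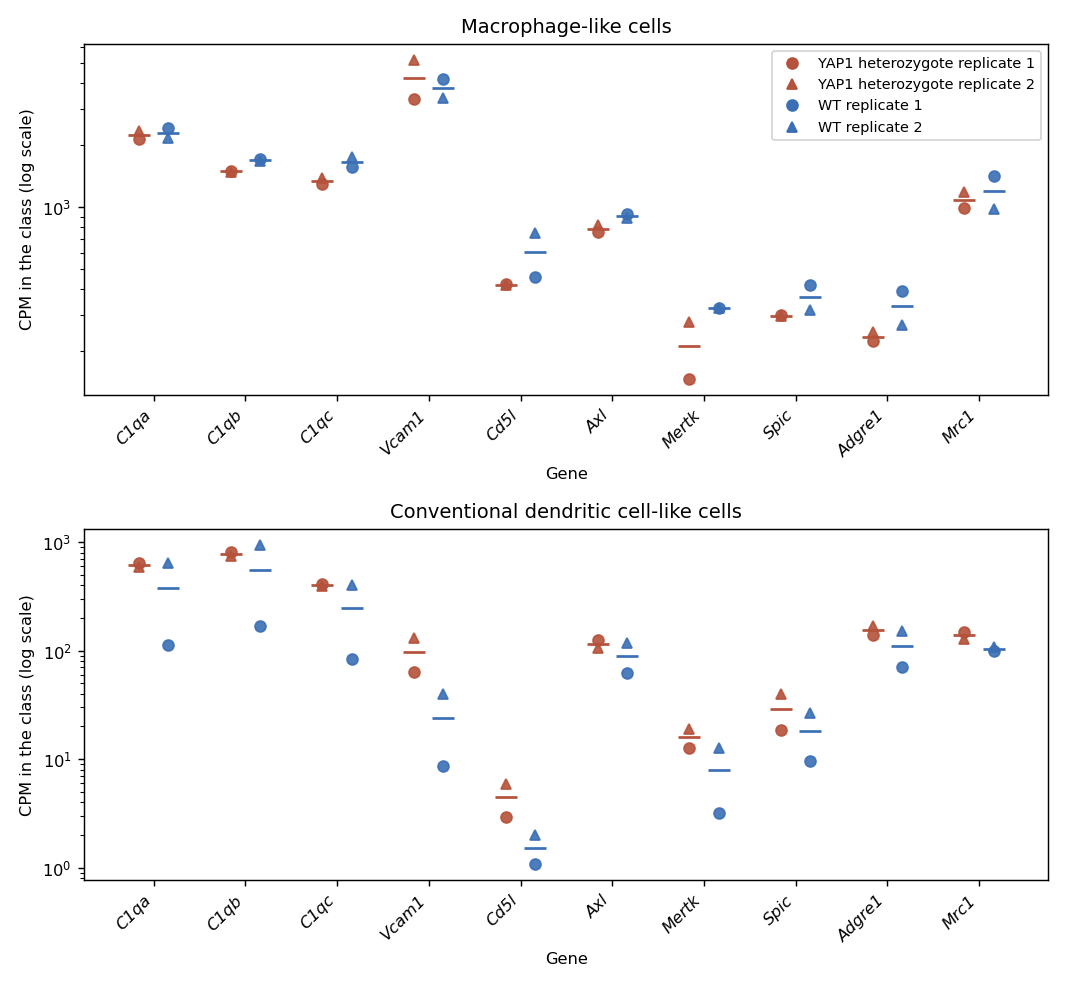
CPM of the 10 genes on a log scale in macrophage-like cells (top) and conventional dendritic cell-like cells (bottom), YAP1 heterozygote to the left of WT, each point 1 library and each line the mean of 2. In macrophage-like cells 7 genes lie lower in both YAP1 heterozygote libraries, and in dendritic-like cells WT replicate 1 is the low point for the C1q chains.

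In conventional dendritic cell-like cells, the C1q values were set apart by WT replicate 1. C1qa had 646 and 585 CPM in YAP1 heterozygote libraries, against 114 and 638 CPM in WT libraries (log2 fold change 0.71, SE 0.61). C1qb had 808 and 738 CPM in the YAP1 heterozygote, against 170 and 937 CPM in WT (0.48, SE 0.61). C1qc had 411 and 392 CPM in the YAP1 heterozygote, against 83.8 and 406 CPM in WT (0.70, SE 0.56). Without WT replicate 1 the values were -0.059 for C1qa, -0.28 for C1qb and -0.023 for C1qc, with adjusted p-values of 1. Without WT replicate 2 they were 2.54, 2.29 and 2.36, with adjusted p-values of 1.07e-22, 9.58e-21 and 9.26e-18 in edgeR's test. A fit with 1 WT library assumes that it varies like the YAP1 heterozygote libraries. The share of dendritic-like cells with UMIs of all 3 C1q genes showed the same split, at 32.8% and 26.8% in the YAP1 heterozygote, against 11.4% and 31.0% in WT.

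Vcam1 had the largest log2 fold change of the 9 genes tested in these cells. It had 63.5 and 131 CPM in YAP1 heterozygote dendritic-like cells, against 8.59 and 39.7 CPM in WT ones, from 65 and 199 UMIs against 8 and 60 UMIs (log2 fold change 1.95, SE 0.55). The libraries did not overlap, the unadjusted p was 0.00741 and the adjusted p was 0.9987. Vcam1 was higher in the YAP1 heterozygote both between the replicate 1 and between the replicate 2 libraries, the numbers that also divide the libraries by sex. In each library, between 25.6% and 62.5% of these UMIs came from 1 cell. The value was 1.33 without WT replicate 1 and 3.63 without WT replicate 2. Over 13 alternatives, among them the fit without the top cell of each library, it ranged over 1.03 to 3.63. Mrc1 had 150 and 127 CPM in the YAP1 heterozygote, against 99.9 and 109 CPM in WT (0.43, SE 0.17, adjusted p 0.9987).

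All 9 genes tested in dendritic-like cells had positive values, with a median of 0.68 beside 0.0019 for all 8271 genes tested, and Cd5l was too low to test. Adgre1 had 141 and 167 CPM in the YAP1 heterozygote, against 70.9 and 152 CPM in WT (0.47, SE 0.33), and its value was 0.026 without WT replicate 1 and 1.23 with an adjusted p of 3.16e-05 without WT replicate 2. The libraries did not overlap for 3 of the 9, Vcam1, Mertk and Mrc1, compared with 11.7% of all genes tested. In edgeR's test 0 genes of the class were called (0%), 226 had an unadjusted p under 0.05 (2.73%), and DESeq2 called 0.

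In monocytes none of the tested genes of the 10 was called. Adgre1 had 63.0 and 61.8 CPM in YAP1 heterozygote classical monocyte-like cells, against 61.8 and 56.7 CPM in WT ones (log2 fold change 0.097, SE 0.092, adjusted p 0.991). Vcam1 had 4.11 and 4.64 CPM in the YAP1 heterozygote, against 2.28 and 2.20 CPM in WT, from 51 and 62 UMIs against 32 and 25 UMIs (0.99, SE 0.25, unadjusted p 0.00376, adjusted p 0.601). Of the 7 genes tested, 3 had positive values and Vcam1 alone did not overlap between the genotypes, compared with 13.2% of all genes tested that lay higher and 20.2% that lay lower without overlap. edgeR called 0 of 11535 genes (0%), 601 had an unadjusted p under 0.05 (5.21%), and DESeq2 called 12, none of them among the 10. In nonclassical monocyte-like cells Adgre1 had 171 and 156 CPM in the YAP1 heterozygote, against 108 and 176 CPM in WT (0.22, SE 0.24, adjusted p 0.9997). C1qb had 0 and 11.3 CPM in the YAP1 heterozygote, against 27.2 and 22.6 CPM in WT, from 0 and 10 UMIs against 24 and 17 UMIs (-1.88, SE 0.69, unadjusted p 0.0194, adjusted p 0.9997). C1qa had 8.905 and 18.07 CPM in the YAP1 heterozygote, against 18.13 and 25.3 CPM in WT (-0.59, SE 0.46, adjusted p 0.9997). A single cell held all 5 C1qa UMIs of YAP1 heterozygote replicate 1, and a single cell 14 of the 16 C1qa UMIs and 13 of the 24 C1qb UMIs of WT replicate 1. Of the 4 genes tested in this class, these 2 lay lower without overlap, compared with 14.6% of the 6993 genes tested that lay lower and 13.7% that lay higher. edgeR called 4 genes (0.0572%), none of the 10, and 2.72% had an unadjusted p under 0.05. Vcam1 in granulocyte-monocyte progenitor-like cells, its other large source, was at 94.6 and 79.2 CPM in the YAP1 heterozygote, against 88.4 and 89.5 CPM in WT (-0.022, SE 0.086, adjusted p 0.9996).

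Other genes of the same pathways were read from 3 lists, none of which held the 10 genes. Of 24 complement components and regulators, 22 were tested over all kept cells, 15 with positive and 7 with negative values, and edgeR called 0 in either direction (0 with an unadjusted p under 0.05). The most abundant were Calr, a chaperone that also serves as a C1q receptor and eat-me signal, at 496 and 442 CPM in the YAP1 heterozygote against 481 and 477 CPM in WT, and the integrin genes Itgam and Itgb2 of complement receptor CR3. The central component C3 had 288 and 253 CPM in the YAP1 heterozygote, against 288 and 230 CPM in WT. In macrophage-like cells, 6 of 12 tested complement genes had positive and 6 negative values, with 0 called by edgeR and 2 with an unadjusted p under 0.05.

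Of 35 efferocytosis genes, 33 were tested over all kept cells, 20 with positive and 13 with negative values, and edgeR called 0 in either direction (3 with an unadjusted p under 0.05). Thbs1, encoding thrombospondin, which bridges dying cells to phagocytes, had 325 and 187 CPM in the YAP1 heterozygote, against 437 and 433 CPM in WT (log2 fold change -0.75, SE 0.26, unadjusted p 0.0332, adjusted p 0.9998). The engulfment GTPase gene Rac1 and its exchange factor gene Dock2 had log2 fold changes of 0.055 and 0.00015. Within macrophage-like cells, 7 of 16 tested genes had positive and 9 negative values, with 0 called by edgeR and 2 with an unadjusted p under 0.05. Rac1, the cholesterol exporter gene Abca1, the receptor gene Lrp1 and Thbs1 were the most abundant there, with log2 fold changes of 0.41, -0.13, -0.13 and -0.45. Gas6, the ligand of Axl and Mertk, was picked after its value was seen and had 154 and 141 CPM in YAP1 heterozygote macrophage-like cells, against 466 and 220 CPM in WT ones (-1.19, SE 0.35, adjusted p 0.371). Stromal markers, 5 or 6 of 6 detected, moved with it, at a summed 1733 and 1618 CPM in the YAP1 heterozygote against 3606 and 2409 CPM in WT, with Col1a1 at 0 in replicate 1 of each genotype, and their part was not tested.

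Of 26 tissue macrophage genes, 20 of the 23 tested over all kept cells had positive values, with a median of 0.19 beside 0.013 for all genes. In macrophage-like cells 7 of 19 were positive, with a median of -0.25 beside -0.0087. In dendritic-like cells 18 of 19 were positive, with a median of 0.40 beside 0.0019, a count not recomputed without WT replicate 1. In each set edgeR called 0 in either direction, and an unadjusted p under 0.05 was reached by 4, 3 and 4 of them, over all cells, in macrophage-like and in dendritic-like cells in that order. Apoe had 227 and 271 CPM over all YAP1 heterozygote cells, against 160 and 255 CPM over all WT cells (log2 fold change 0.28, SE 0.24). The lysozyme gene Lyz2, also abundant in neutrophils, had 6462 and 5576 CPM in YAP1 heterozygote macrophage-like cells, against 3572 and 3282 CPM in WT ones (0.86, SE 0.19, adjusted p 0.191). The protease gene Ctsb had 3308 and 3722 CPM in YAP1 heterozygote macrophage-like cells, against 4114 and 4526 CPM in WT ones (-0.25, SE 0.20, adjusted p 0.769).

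Likeness to the 10 genes was measured as Pearson's r of log2(CPM + 1) over 64 units, each 1 of the 16 classes in 1 of the 4 libraries, among 8239 genes. The units share libraries and depth, so r is a description. The genes most like the mean of the C1q chains were Ms4a7 (r = 0.962), Nr1h3 (0.929), Gdf15 (0.891), Sema6d (0.887) and Cd163 (0.876). Ms4a7 and Fcna were the closest to Axl (0.939 and 0.889), Sema6d and Fcna to Mertk (0.952 and 0.934), and Ms4a7 and Sema6d to Mrc1 (0.937 and 0.916). Fcna and Cxcl12 were the closest to Cd5l (0.945 and 0.933), where Cxcl12 is a stromal gene that led the 17 stromal-like cells within the macrophage-like class, and Fcna and Sema6d to Vcam1 (0.819 and 0.809). For Spic they were Ms4a7 and Nr1h3 (0.910 and 0.909), and Clec4a1 was close to Adgre1 (0.959). Among the 10 genes themselves, r was 0.964 for C1qa with C1qb, 0.974 for C1qa with C1qc and 0.955 for Mertk with Spic. The lowest value was 0.616, for Vcam1 with Adgre1.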

How the data were processed

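The 4 libraries were made with 10x 3' chemistry of kit version 3.1, per the labels' protocols. The authors deposited UMI counts per gene and cell barcode for each library. Cell Ranger 5.0.0 is named per the file headers, but version 3.0.0 per the submitters' processing notes, which also name Seurat 4.3.0 and GRCm38/mm10. Deposited totals were 112806900 and 119855112 UMIs in the YAP1 heterozygote libraries and 114943163 and 115773607 UMIs in the WT libraries.

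A barcode was kept from 500 UMIs and 200 genes upwards if mitochondrial genes held no more than 10% of its UMIs, and Scrublet, run per library, removed 3.42% to 4.39% of them as doublets. Cells were clustered in scanpy 1.11.5 without the 10 genes (2000 variable genes, 30 principal components, 15 neighbours, Leiden resolution 1). UMIs were summed per class and library and compared with edgeR 4.0.16 (quasi-likelihood test, low counts filtered, TMM, Benjamini-Hochberg adjustment over all genes tested), with DESeq2 1.42.0 as an alternative, in R 4.3.3. The edgeR procedure was tested on simulated counts. In macrophage-like cells it recovered 10.45% of 2-fold and 71.21% of 4-fold changes. The figures were 31.34% and 83.33% in dendritic-like cells, and 61.19% and 87.88% over all cells. A gene that was not called may thus still differ. Fold changes are log2 of YAP1 heterozygote over WT. Shares carry 95% Wilson intervals and exact two-sided permutation tests over libraries. Ddx3y and Xist divide the replicates of each genotype by sex, so these replicates did not come from the same animal. The labels do not say how many animals each library holds, so p-values measure the spread between these libraries. In fits without the replicate number as a block, the spread within a genotype includes any difference between the sexes.

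All 10 genes are described. From each pathway list the 4 genes of highest mean level in the cells compared were eligible to be named, and any other is said to be picked afterwards. The members and lists were chosen with earlier results of these data known. 1 gene that this rule or the likeness measure would name is not reported here.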

Additional observations from a re-analysis of the deposited data

How the results depend on the processing

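Of the values recomputed under alternatives, 406 kept their direction and side of the threshold, 41 changed direction and 11 newly passed the threshold. Over all kept cells, where edgeR called 0 genes, DESeq2 called 11 and leaving out 1 library gave 0 to 134 (2 without WT replicate 1, 134 without WT replicate 2). In macrophage-like cells, where 1 was called, the count was 20 with DESeq2, 64 with no filter, 2 with doublets kept, 11 with the 10 genes in the clustering, 4 at resolution 2, 5 to 49 with 1 library left out, and 0 without stromal-like cells, an alternative chosen after seeing the data. In classical monocyte-like cells, where 0 were called, it was 12 with DESeq2, 228 with no filter and 3 to 434 with 1 library left out. In conventional dendritic cell-like cells, where 0 were called, it was 32 with no filter and 0 to 247 with 1 library left out. The cause was not tested.

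With the replicate number as a block, calls numbered 0 over all cells, 49 in macrophage-like, 71 in classical monocyte-like and 2 in dendritic-like cells, and Vcam1 in dendritic-like cells was 2.07 (adjusted p 0.0351). The labels do not say that the numbers pair the libraries, but Ddx3y and Xist divide replicate 1 from replicate 2 by sex in both genotypes. Deviations of the replicate 1 libraries from their group means correlated across genes at 0.492 over all cells, 0.0352 in macrophage-like, 0.458 in classical monocyte-like and 0.147 in dendritic-like cells, from 2 pairs only.

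Reversed log2 fold changes, and the ranges with 1 library left out, were as follows. Over all cells, Mertk ranged over -0.264 (without YAP1 heterozygote replicate 2) to 1.25 and C1qb over -0.158 (without WT replicate 1) to 1.56. In macrophage-like cells, C1qa was -0.031 without scaling factors, Mrc1 0.0211 with no filter and Mrc1 0.0386 without its top cell. Leaving out a library there gave -0.301 to 0.193 for Mrc1, -0.0537 to 0.115 for C1qa and -0.143 to 0.531 for Vcam1. Keeping doublets gave C1qa -0.282 and Vcam1 -0.114, resolution 2 gave C1qa -0.224 and Vcam1 -0.0998, and dropping stromal-like cells gave C1qa -0.0514. With the 10 genes in the clustering, C1qb was 0.389, C1qc 0.139, Axl 0.221, Spic 0.126, Adgre1 0.019 and Mrc1 0.322. In classical monocyte-like cells, C1qc was 0.00407 with upper-quartile scaling, and leaving out a library gave C1qa -0.555 to 0.226, C1qb -0.162 to 0.399, C1qc -0.354 to 0.371, Axl -0.374 to 0.0492 and Mrc1 -0.137 to 0.0237. Keeping doublets there gave C1qa 0.167, C1qc 0.525 and Mrc1 0.13, clustering with the 10 genes gave C1qa 0.124 and C1qc 0.251, resolution 2 gave C1qb -0.114, and dropping the top cell gave C1qa 0.474 and C1qc 0.329. In dendritic-like cells, Spic ranged over -0.0352 (without YAP1 heterozygote replicate 2) to 1.75. C1qa ranged over -0.0592 to 2.54, C1qb over -0.284 to 2.29, C1qc over -0.0232 to 2.36 and Axl over -0.0552 to 0.975, each lowest without WT replicate 1 and highest without WT replicate 2. Vcam1 passed the threshold with no filter in classical monocyte-like cells (0.989, adjusted p 0.026) and in dendritic-like cells (1.95, adjusted p 1.25e-10). The log2 ratio of the share of cells with all C1q chains ranged over 0.227 to 1.05, and that of the macrophage-like share over 0.849 to 1.33. The shallow macrophage-like cells, 51 to 150 per library, limit what can be resolved in that class.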

Other observations

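Of the genes whose class profile was most like that of the C1q chains, Gdf15, a stress-responsive cytokine gene, had 80.7 and 98.9 CPM in YAP1 heterozygote macrophage-like cells, against 473 and 307 CPM in WT ones (log2 fold change -2.06, SE 0.31, edgeR adjusted p 0.0932). In conventional dendritic cell-like cells it had 42.0 and 38.3 CPM in the YAP1 heterozygote, against 90.2 and 91.3 CPM in WT (-1.14, adjusted p 0.9987). It was not called in either class. Cd163, the haemoglobin scavenger receptor gene, had 365 and 485 CPM in YAP1 heterozygote macrophage-like cells, against 274 and 291 CPM in WT ones (0.64, adjusted p 0.552).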
